A study of Mus musculus with 30 samples.

Results

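PIWI proteins are the germ cell branch of the Argonaute family. They bind piRNAs, short RNAs cut from long single-stranded precursors, and use them to recognise and silence transposons and, later in spermatogenesis, other transcripts. In the mouse testis precursors are unwound and cut at the mitochondrial surface and in neighbouring germ granules, loaded onto a PIWI protein, trimmed, and methylated at the 3′ end. Described here are 10 genes of this machinery: the PIWI proteins Piwil1, Piwil2 and Piwil4, the precursor processing factors Mov10l1, Pld6 and Asz1, the germ granule and silencing cofactors Mael, Gtsf1 and Ddx4, and the piRNA methyltransferase Henmt1. They were picked for their known role and found by gene symbol among 55566 features of the adult table, and joined by gene identifier to the juvenile tables. All 10 were present in the adult table, and 9 were present among 15145 genes at day 8 and 14846 genes at day 10. Piwil4 in juvenile testis was not analysed here.

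RNA was measured in whole testis of C57BL/6J mice that carried changed alleles of Ythdc2, a gene for a YTH-domain RNA helicase that germ cells need to progress through meiotic entry. Of 30 libraries, 12 were total RNA and 12 were ribosome footprints (mRNA stretches shielded by ribosomes) from juvenile testis, and 6 were RNA from adult testis. At postnatal day 8, 3 homozygous knockout mice (Ythdc2 -/-) were compared with 3 wild-type mice. At day 10, 3 knockout mice were compared with a joint control group of 2 heterozygous (Ythdc2 +/-) and 1 wild-type mouse. The adult mice, aged 20 or 24 weeks, were 3 heterozygous (WLA/+) and 3 homozygous (WLA/WLA) carriers of a Ythdc2 WLA allele, so both adult groups carried the allele. What WLA stands for, and which part of Ythdc2 the knockout lacks, is not given in the sources used here. Because whole testis was used, fewer cells of a type and less RNA per cell cannot be told apart in any of these values.

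Adult libraries held 33331987 to 43707798 counted reads. Genes that mark germ cell stages from spermatogonia to spermatids were detected in all 6 adult libraries, with spermatid markers summing to between 12306 and 14255 CPM (read counts scaled to library size). Heterozygous libraries differed among themselves more than homozygous ones, with a chi-square per degree of freedom of 6.97 to 11.1 between pairs against 1.87 to 4.32. Ythdc2 itself stood at 33.3 ± 3.03 CPM in heterozygous and 34.1 ± 1.54 CPM in homozygous testis (SD, n = 3 each), a level that does not test the labels because WLA is not labelled a knockout. Its level in the juvenile tables was not analysed here. No test across juvenile animals was made here, because the juvenile values used are the authors' deposited effects and adjusted p-values, in which depth and the spread between animals are unknown.

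The stretches before the start sites of these genes were searched for the letters of an E-box and of a MYB motif. The RefSeq promoter table of GRCm38.p6, the assembly of mm10, gave 11 start sites for 9 of the 10 genes. Piwil2 had none. In the 250 bases before each start site, the E-box letters CACGTG, which read the same on both strands, occurred in 5 of 11 windows, those of Piwil1, Mov10l1, Pld6, Mael and Ddx4. They occurred in 6.02% of all 32841 promoter windows and in 9.32% of the 9177 windows with a GC content of 60% or more. The MYB motif was sought on both strands as CAACTG, as its variant CAACGG, with a leading T as TAACTG and, last, as TAACGG. One of these 4 forms, none sharing a base with an E-box match, occurred in 3 of 11 windows, those of Piwil1, Mov10l1 and Pld6, against 23.7% of all windows and 16.0% of the GC-rich ones. The MYB share of the members' windows, 27.3%, was thus near that of all windows. These motifs were picked after the sequences had been seen, and a match of letters is a description only. The median GC content of the members' windows was 64%, against 52.4% over all windows, and their median number of CpG dinucleotides was 16 against 6.

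Mael is shown whole, since it had the lowest total RNA effect of these genes at both juvenile ages. Its 250 bases lie at chr1:166238745-166238994 on the minus strand, and the capitals mark the E-box letters, which end 218 bases before the start site.
Mael: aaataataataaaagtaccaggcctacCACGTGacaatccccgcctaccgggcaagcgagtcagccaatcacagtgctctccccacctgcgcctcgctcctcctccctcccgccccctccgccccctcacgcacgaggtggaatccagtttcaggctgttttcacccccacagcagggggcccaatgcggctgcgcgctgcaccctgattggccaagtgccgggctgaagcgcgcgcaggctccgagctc

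For the others, 30 bases around the matches are printed 5′ to 3′ on the gene's strand, with the matched letters in capitals. Piwil1 held 2 E-boxes and 2 MYB matches, both MYB matches on the opposite strand, and Mov10l1 held 1 of each. The MYB match of Pld6 lies before another start site, inside the gene record, and is not printed. The first Piwil1 stretch spans the start of the RefSeq gene record, the other Piwil1 stretches and that of Ddx4 lie inside the record, and those of Mov10l1 and Pld6 lie outside it.
Piwil1 E-box, chr5:128736055-128736084, plus strand: aaaaccgccaccCACGTGgcagccaatcag
Piwil1 E-box, chr5:128736080-128736109, plus strand: atcagggcccagCACGTGtccacctcgccg
Piwil1 MYB, chr5:128736095-128736124, plus strand: gtgtccacctcgCCGTTAacccagaggtct
Piwil1 MYB, chr5:128736161-128736190, plus strand: ggagggatctggCAGTTGgggctgttagca
Mov10l1 E-box, chr15:88982744-88982773, plus strand: ccttCACGTGctaaccgccaacctctcgtg
Mov10l1 MYB, chr15:88982764-88982793, plus strand: acctctcgtggcTAACGGtcgagcctcgtg
Pld6 E-box, chr11:59787673-59787702, minus strand: ggggcgggctggCACGTGttgggcgcgcaa
Ddx4 E-box, chr13:112652322-112652351, minus strand: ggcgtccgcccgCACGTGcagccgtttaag

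In adult testis, none of the 10 genes passed the test for a difference in RNA between the genotypes. Piwil1, Pld6 and Henmt1 stood 8.78% to 11.98% higher in homozygous testis, with every homozygous library above every heterozygous one. Asz1 differed by -6.65%, lower in homozygous testis, also with no overlap between the groups. Piwil2, Mov10l1, Mael, Gtsf1 and Ddx4 differed by between -4.98% and 3.85%. By edgeR's quasi-likelihood test with Benjamini-Hochberg adjustment over 22446 features, 0 of 10 passed an adjusted p of 0.05, against 0.236% of all features. At an unadjusted p under 0.05, 3 of 10 passed by edgeR (Piwil1, Pld6 and Henmt1), against 13.2% of all features. DESeq2 called 0 of the 9 genes to which it gave an adjusted p. By DESeq2, 2 of 10 (Piwil1 and Pld6) had an unadjusted p under 0.05, against 4.94% of the 39839 features it tested. Those features were not filtered for low counts, unlike the 22446 of edgeR, so the DESeq2 and edgeR shares are over unlike sets. Groups did not overlap for 4 of 10 genes, against 19.3% of all features, with 3 of 10 higher in homozygous testis (8.99% of all features) and 1 of 10 lower (10.3%). The median log2 fold change of the 10 genes was 0.01, and that of all features was 0.01.

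**Figure D1:**
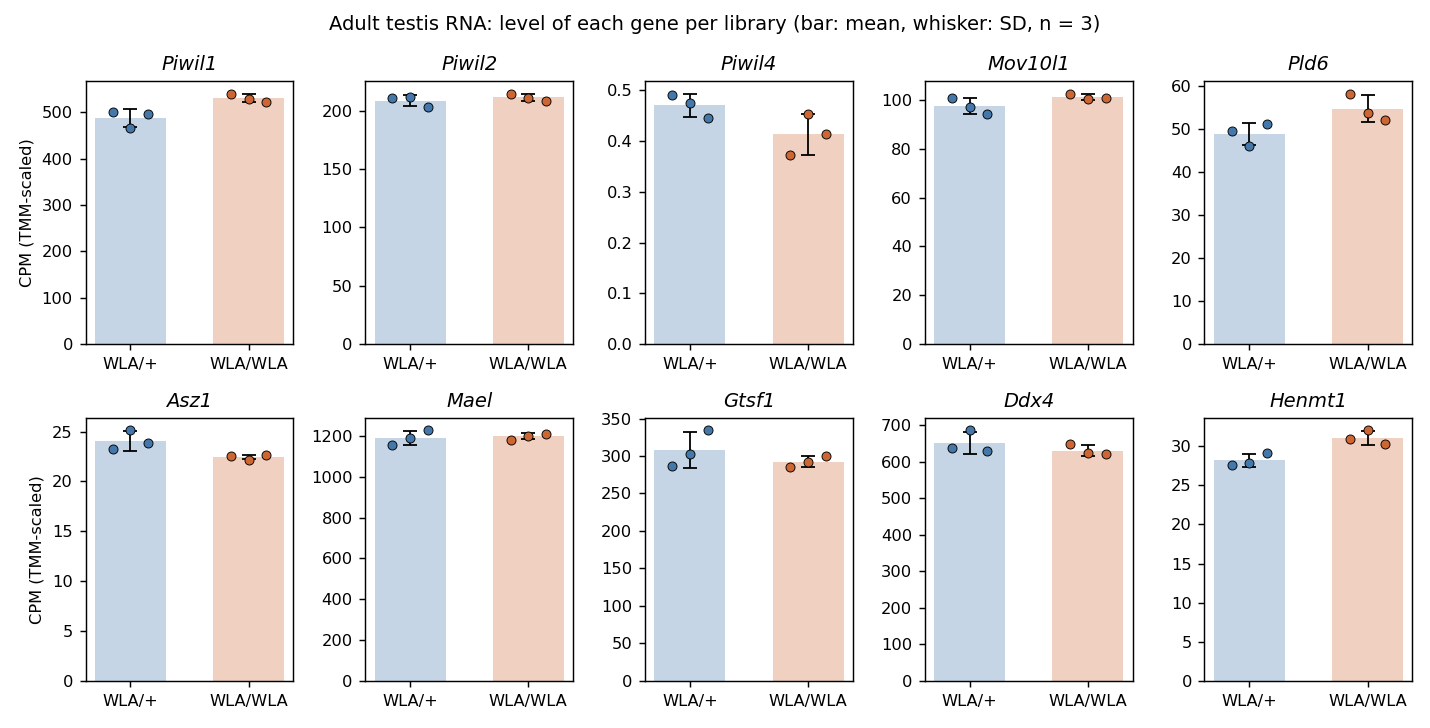
Level of each gene in adult testis in CPM scaled by TMM, one panel per gene with its own axis starting at 0; points are libraries, bars are means and whiskers are SD (n = 3 per genotype). The homozygous points of Piwil1, Pld6 and Henmt1 lie above all heterozygous points, those of Asz1 lie below them, and Piwil4 stays under 0.5 CPM.

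Piwil1 (ENSMUSG00000029423.10, chr5:128736071-128755474) encodes MIWI, the PIWI protein of pachytene spermatocytes and round spermatids. Its 3 heterozygous libraries held 501, 465 and 495 CPM, and its 3 homozygous libraries held 540, 528 and 522 CPM. The lowest homozygous library was thus above the highest heterozygous one. Means were 487 ± 19.101 and 530 ± 8.98 CPM (SD, n = 3 each). The log2 fold change was 0.12 (SE 0.044, 95% interval 0.03 to 0.22), or 8.78% with an interval from 1.81% to 16.2%. Its adjusted p by edgeR was 0.276, the lowest of the 10 genes.

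Piwil2 (ENSMUSG00000033644.5, chr14:70372477-70436898) encodes MILI, which is present from fetal germ cells onwards and binds both early and pachytene piRNAs. Heterozygous libraries held 211, 212 and 203 CPM and homozygous libraries held 215, 211 and 209 CPM. The groups overlapped, and the log2 fold change was 0.02 (SE 0.042, interval -0.07 to 0.11; edgeR adjusted p = 0.885). Piwil4 (ENSMUSG00000036912.18, chr9:14701776-14740672) encodes MIWI2, the nuclear PIWI protein that directs DNA methylation of transposons in fetal germ cells. It was close to the limit of detection, with 19, 21 and 16 reads in heterozygous and 15, 15 and 16 reads in homozygous libraries. That is 0.446 to 0.491 CPM against 0.373 to 0.452 CPM. The interval of its log2 fold change of -0.20 ran from -0.75 to 0.36 (edgeR adjusted p = 0.797), or from -40.7% to 28.7%. These reads thus set neither the size nor the direction of a change.

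Among the processing factors, Mov10l1 (ENSMUSG00000015365.15, chr15:88982891-89055152) encodes an RNA helicase that hands piRNA precursors on for cutting. Its heterozygous libraries held 101, 97.3 and 94.2 CPM, and its homozygous libraries 103, 100.4 and 100.7 CPM. One heterozygous library lay inside the homozygous range, and the log2 fold change was 0.05 (SE 0.046, interval -0.05 to 0.15; edgeR adjusted p = 0.649).

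Pld6 (ENSMUSG00000043648.7, chr11:59783893-59787657) encodes MitoPLD, the mouse Zucchini, a nuclease of the outer mitochondrial membrane that makes the 5′ ends of piRNAs. Heterozygous libraries held 49.5, 46.2 and 51.3 CPM and homozygous libraries 58.3, 53.9 and 52.3 CPM. The homozygous group was higher throughout, though its lowest library stood close to the highest heterozygous one. Means were 49.0 ± 2.58 and 54.8 ± 3.13 CPM (SD, n = 3 each), and the log2 fold change was 0.16 (SE 0.060, interval 0.03 to 0.29; edgeR adjusted p = 0.285). Asz1 (ENSMUSG00000010796.11, chr6:18050964-18109061) encodes GASZ, a scaffold that holds piRNA factors at mitochondria. Its heterozygous libraries held 23.2, 25.1 and 23.8 CPM, and its homozygous libraries 22.5, 22.2 and 22.6 CPM. It was the sole member with every homozygous library below every heterozygous one, with a log2 fold change of -0.10 (SE 0.062, interval -0.23 to 0.04; edgeR adjusted p = 0.523).

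Of the granule and silencing cofactors, Mael (ENSMUSG00000040629.8, chr1:166201385-166238744) encodes Maelstrom, a germ granule protein needed for transposon silencing and piRNA production. It had the highest read count of the 10 genes, with 1157, 1188 and 1228 CPM in heterozygous and 1181, 1202 and 1211 CPM in homozygous libraries. The homozygous libraries all lay within the heterozygous range, and the log2 fold change was 0.01 (SE 0.041, interval -0.08 to 0.10; edgeR adjusted p = 0.949). Ddx4 (ENSMUSG00000021758.14, chr13:112598333-112652633) encodes the mouse VASA helicase, found in germ cells throughout their development. It stood at 652 ± 30.3 CPM in heterozygous and 631 ± 15.4 CPM in homozygous testis (SD, n = 3 each), with a log2 fold change of -0.05 (SE 0.046, interval -0.15 to 0.05; edgeR adjusted p = 0.695). Its highest library was a heterozygous one with 687 CPM, and the other 5 lay between 621 and 649 CPM.

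Gtsf1 (ENSMUSG00000022487.14, chr15:103402458-103430445) encodes a small zinc finger protein that helps PIWI proteins cut their targets. The heterozygous libraries held 286, 303 and 334 CPM and the homozygous ones 286, 292 and 300.03 CPM. The groups overlapped because of the first heterozygous library, and the log2 fold change was -0.07 (SE 0.056, interval -0.20 to 0.05; edgeR adjusted p = 0.611). Without that library it was -0.13 (edgeR adjusted p = 0.144), and without the third heterozygous library it was -0.005 (edgeR adjusted p = 0.983).

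Henmt1 (ENSMUSG00000045662.17, chr3:108939454-108979885) encodes the methyltransferase that protects the 3′ ends of piRNAs. Its 27.6, 27.8 and 29.2 CPM in heterozygous libraries all lay below its 30.9, 32.04 and 30.3 CPM in homozygous ones. Means were 28.2 ± 0.839 and 31.1 ± 0.876 CPM (SD, n = 3 each). The log2 fold change was 0.14 (SE 0.058, interval 0.01 to 0.27), or 10.2%, with an edgeR adjusted p of 0.336. Its locus overlaps Fam102b in the annotation, and whether the counting used strand is not stated. Fam102b held 78 to 139 reads per library and a log2 fold change of 0.001, against 1047 to 1243 reads for Henmt1.

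**Figure D2:**
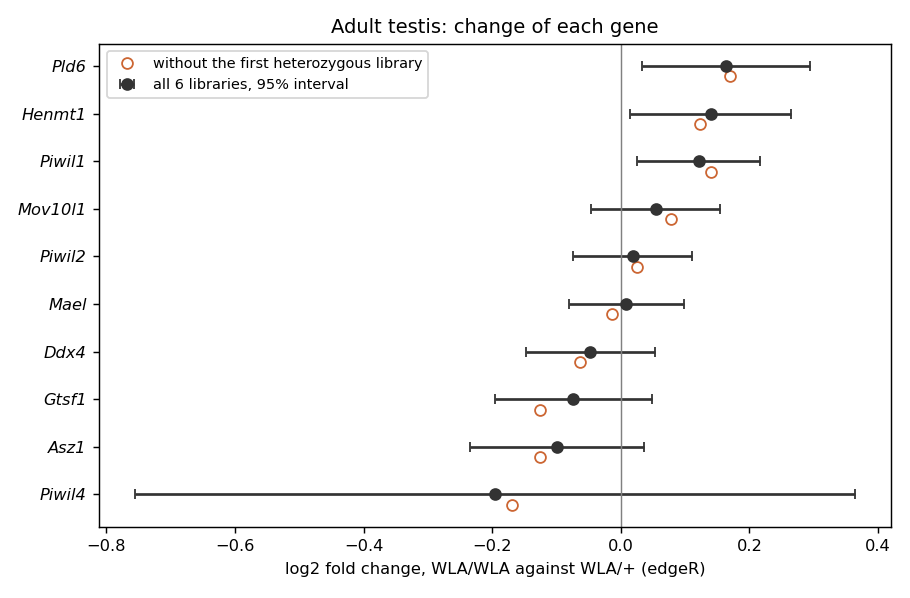
Log2 fold change of each gene in adult testis, homozygous against heterozygous, by edgeR: filled points with 95% intervals use all 6 libraries, and open points leave out the first heterozygous library. The intervals of Pld6, Henmt1 and Piwil1 lie above 0, that of Piwil4 runs from -0.75 to 0.36, and Mael's open point is on the other side of 0 from its filled one.

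Leaving Piwil4 aside, the 95% intervals of the other 9 genes together spanned -15.0% to 22.6%, and their coefficients of variation within a genotype were 1.06% to 7.94%. The first heterozygous library weighed on the size of the whole adult comparison. With all libraries edgeR called 53 features, and without that library it called 1917 of 22910, or 8.37%. Even then 0 of the 10 genes passed, with Piwil1 closest at a log2 fold change of 0.14 and an edgeR adjusted p of 0.0804, followed by Pld6 at 0.17 and 0.101. At an unadjusted p under 0.05, 3 of 10 (Piwil1, Pld6 and Gtsf1) passed in that fit, against 24.4% of all features. Leaving out 1 of the other 5 libraries left 3 to 15 features called.

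Markers of some somatic cell types also stood higher in homozygous testis. The summed level of 6 Leydig cell markers was 265 to 421 CPM in heterozygous and 429 to 495 CPM in homozygous libraries, and all 6 markers had a higher homozygous mean. The 4 peritubular myoid markers summed to 57.2 to 64.0 CPM against 65.6 to 70.5 CPM. Sums of the 8 Sertoli markers, whose groups overlapped, were 967 to 1170 CPM against 1109 to 1134 CPM. All 4 myoid and all 8 Sertoli markers had a log2 fold change above 0. Groups also overlapped for macrophage (44.2 to 65.0 against 52.2 to 58.0 CPM), endothelial (13.2 to 17.0 against 14.6 to 17.9 CPM) and red blood cell markers (24.6 to 29.1 against 25.4 to 29.3 CPM). In these 3 lists, 4 of 5, 3 of 4 and 3 of 5 markers had a log2 fold change above 0. No gene of these lists was at 0 in all libraries, and none was called. Among germ cells, 7 pachytene spermatocyte markers summed to 1772 to 1932 CPM in heterozygous and 1970 to 2005 CPM in homozygous libraries, also without overlap, yet 4 of the 7 had a log2 fold change below 0 and their median was -0.01. The 11 undifferentiated spermatogonial markers summed to 72.2 to 77.3 CPM against 78.3 to 81.8 CPM, and 8 of the 10 tested had a log2 fold change above 0. The sums of differentiating spermatogonial, early meiotic and spermatid markers overlapped, with 8 of 8, 9 of 17 and 4 of 11 above 0. The part of these differences in the values of Piwil1, Pld6 and Henmt1 was not tested.

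In juvenile testis, no gene of the piRNA machinery was called in total RNA or footprints of the knockout at either age. The authors' deposited table gave total RNA effects, read as log2 and knockout against control, between -0.10 and 0.03 at day 8 and between -0.10 and 0.06 at day 10 for the 9 genes measured. Footprint effects in the authors' deposited table lay between -0.17 and 0.05 at day 8 and between -0.11 and 0.05 at day 10. For day 8 total RNA, the authors' deposited table put 0 of 9 members under an anota2seq adjusted p of 0.05, against 0.0528% of all genes. At day 10 the authors' deposited table called 0 of 9 genes in total RNA and 0% of all genes, and footprints gave 0 of 9 and 0% at each age. Those tables give adjusted p-values alone, so counts at an unadjusted p were not made. With so few calls over all genes, a count of 0 among these 9 in total RNA or footprints does not set them apart.

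**Figure D3:**
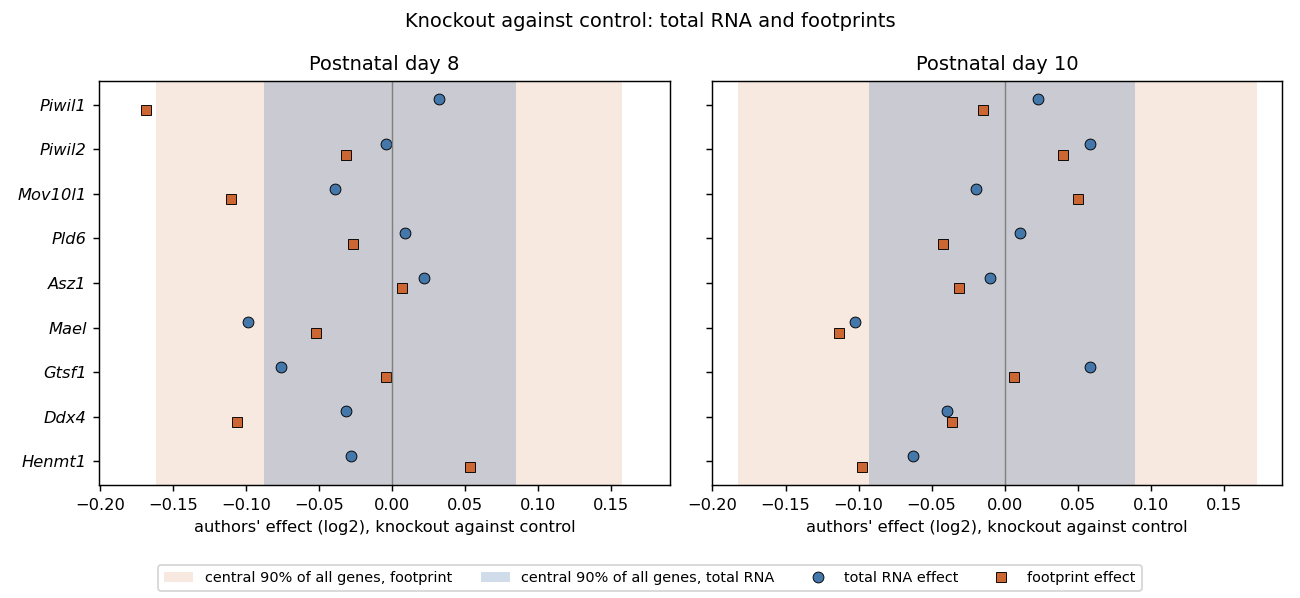
The authors' total RNA effects (circles) and footprint effects (squares) on the log2 scale, knockout against control, for 9 genes at day 8 and day 10; shaded bands span the central 90% of all genes for each measure. Mael's total RNA lies just outside its band at both ages, Piwil1's footprints lie outside theirs at day 8, and the other points lie inside.

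Mael had the most negative total RNA effect of the 9 genes at each age. The authors' deposited table gave -0.10 (anota2seq adjusted p = 0.537) at day 8 and -0.10 (adjusted p = 0.302) at day 10. Of all genes, 6.55% at day 8 and 7.40% at day 10 had a larger absolute effect in the authors' deposited table. Its footprint effects there were -0.05 and -0.11. No animal was shared between the ages.

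For the PIWI proteins, the authors' deposited table gave Piwil1 a total RNA effect of 0.03 (day 8) and of 0.02 (day 10). The authors' deposited table put its day 8 footprint effect at -0.17, the lowest of the 9 genes, with an anota2seq adjusted p of 0.994 and 8.70% of genes further from 0. At day 10 the authors' deposited table gave -0.01, so the lower value was not seen at both ages. MIWI is the PIWI protein of pachytene spermatocytes and round spermatids, and the juvenile read level of Piwil1 is unknown here. Whether its juvenile effects rest on few reads was thus not tested. Piwil2, by the authors' deposited table, had -0.004 and 0.06 for total RNA and -0.03 and 0.04 for footprints.

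The processing factors stayed within 0.04 of 0 in total RNA at both ages in the authors' deposited table. Mov10l1 had -0.04 and -0.02, Pld6 0.01 and 0.01, and Asz1 0.02 and -0.01, at day 8 and day 10 in that order, in the authors' deposited table. Footprints of Mov10l1 were -0.11 at day 8 and 0.05 at day 10 in the authors' deposited table, opposite in sign. Those of Pld6 were -0.03 and -0.04 and those of Asz1 0.01 and -0.03 in the authors' deposited table.

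Among the remaining members, Ddx4 by the authors' deposited table had -0.03 and -0.04 for total RNA and -0.11 and -0.04 for footprints. The total RNA effect of Gtsf1 differed in sign between the ages in the authors' deposited table, at -0.08 and 0.06, and its footprint effects were -0.004 and 0.01. For Henmt1 the authors' deposited table gave -0.03 and -0.06 for total RNA and 0.05 and -0.10 for footprints.

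Set against all genes, the 9 genes had a median total RNA effect of -0.03 at day 8, where all genes had -0.002, and of -0.01 at day 10, where all genes had 0.001, in the authors' deposited table. Median footprint effects of the 9 were -0.03 at both ages in the authors' deposited table, with 0.003 and -0.002 over all genes. In total RNA, 8 of 9 members lay within the central 90% of all genes at each age in the authors' deposited table, from -0.087 to 0.085 at day 8 and from -0.093 to 0.089 at day 10. Between the ages, 6 of 9 genes kept the sign of their total RNA effect, against 51.6% of the 14607 genes measured at both. Footprints kept their sign in 4 of 9 genes, against 51.4%.

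Translation effects, the authors' estimate of footprint change beyond RNA change, were larger for a pair of these genes at day 8. The authors' deposited table gave Mael a day 8 translation effect of 0.40 (anota2seq adjusted p = 0.131) and Gtsf1 one of -0.27 (adjusted p = 0.266). Both lay outside the central 90% of all genes, from -0.251 to 0.240, in the authors' deposited table. At day 10 they had 0.13 and 0.14, and the 9 genes ranged from -0.08 to 0.14, in the authors' deposited table. No member passed 0.05: 0 of 9 at day 8, against 1.33% of all genes, and 0 of 9 at day 10, against 2.68%, in the authors' deposited table. At a threshold of 0.15, Mael at day 8 passed, as did 3.06% of all genes in the authors' deposited table.

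These translation effects rest on a regression of footprints on total RNA within each gene, and its slope, worked back from the effects, was 4.55 for Mael and -3.53 for Gtsf1 at day 8. Footprint minus total RNA gave 0.05 for Mael and 0.07 for Gtsf1 from the authors' deposited table, which for Gtsf1 is the opposite sign. Piwil1 stood at 0.14 in day 8 translation by the authors' deposited table, while its footprint effect minus its total RNA effect was -0.20 and its slope was -9.63. Over 9 genes at both ages, the sign differed between these measures in 5 of 18 cases. Slopes ran from -9.63 (Piwil1) to 4.55 (Mael) at day 8, and from -5.47 (Asz1) to 2.34 (Mael) at day 10. The translation effects thus depend on the fitted slope, and none is read here as a change in translation. Ddx4 had the most negative buffering effect at day 8, the authors' measure of RNA change that footprints do not follow, at -0.15 in the authors' deposited table (anota2seq adjusted p = 0.218). Buffering called 0 of 9 genes at each age, against 1.49% and 1.37% of all genes in the authors' deposited table. The authors' deposited table placed all 9 genes in its background class at each age, while 0.99% of genes at day 8 and 1.83% at day 10 were in its translation or buffering class.

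**Figure D4:**
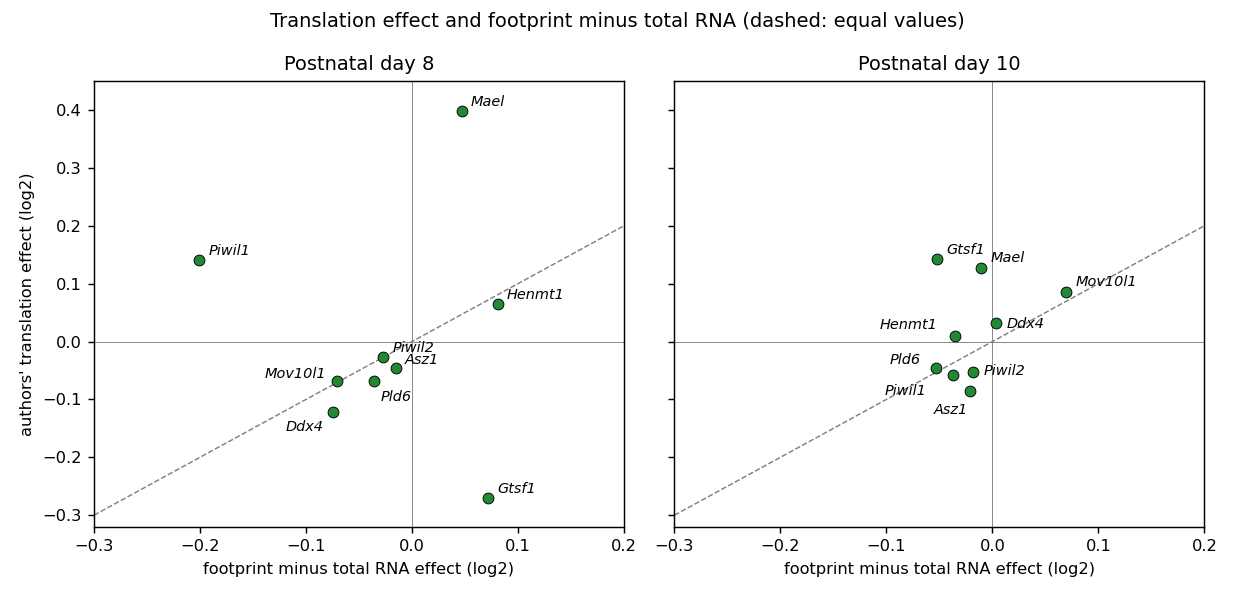
The authors' translation effect against footprint minus total RNA effect, both log2 and knockout against control, for 9 genes at day 8 and day 10; the dashed line marks equal values. At day 8 Mael (0.40 against 0.05), Gtsf1 (-0.27 against 0.07) and Piwil1 (0.14 against -0.20) lie far from the line. At day 10 Gtsf1 (0.14 against -0.05) and Mael (0.13 against -0.01) lie furthest from it, with opposite signs on the axes.

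Other genes were taken as 6 lists with 33 genes, of which 31 were measured in juvenile and 32 tested in adult testis. These lists hold genes of the piRNA pathway and also related genes, namely AGO subfamily Argonautes and transposon defence genes. In total RNA the authors' deposited table called 0 of 31 at each age, against 0.0528% of all genes at day 8 and 0% at day 10. Their median was 0.02 at day 8 and 0.01 at day 10, with -0.002 and 0.001 over all genes. In adult testis edgeR called 0 of 32, against 0.236% of all features. Of the 32, 23 stood higher and 9 lower in homozygous testis. Their median log2 fold change was 0.05, with 0.0055 over all features. Mybl1, the A-MYB transcription factor that drives pachytene piRNA precursors and several genes of the machinery, had the lowest day 10 total RNA effect of the 31, at -0.31 in the authors' deposited table (anota2seq adjusted p = 0.0618). At day 8 it had 0.04, and its footprint effects were 0.13 and -0.26, in the authors' deposited table. Its adult level was 74.9 ± 5.41 CPM in heterozygous and 77.9 ± 1.43 CPM in homozygous testis (SD, n = 3 each).

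In the authors' deposited table, Piwil1, Mov10l1 and Pld6, whose windows held MYB letters, had 0.02, -0.02 and 0.01 in day 10 total RNA. A link between these letters, or Mybl1, and those values was not tested. Btbd18, a nuclear factor that aids transcription of pachytene precursors, had -0.11 and Tcfl5, a testis transcription factor, had 0.05 at day 10 in the authors' deposited table. Of 8 Tudor proteins, which bind methylated PIWI proteins in germ granules, Stk31 had -0.09, Rnf17 -0.07 and Tdrkh -0.06 in day 10 total RNA of the authors' deposited table. Among trimming and loading partners, Gpat2 had -0.09, Prmt5, which methylates PIWI proteins, had 0.05, and its cofactor Wdr77 had 0.05 in the authors' deposited table.

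In nuclear transposon silencing, Tex15 had a day 10 total RNA effect of -0.10 and the DNA methyltransferase gene Dnmt3a one of 0.08 in the authors' deposited table. Morc1, a chromatin ATPase gene needed for transposon silencing in male germ cells, was the sole one of the 31 to pass in translation at day 10, against 2.68% of all genes. Its translation effect was -1.02 in the authors' deposited table (anota2seq adjusted p = 0.00438), while its total RNA and footprint effects were both 0.04. Footprint minus total RNA was thus 0.0034, and the slope worked back from the effects was 26.1. The translation effect of Morc1 therefore depends on that slope and is not read here as a change in translation. The AGO subfamily had -0.05 for Ago3, 0.05 for Ago4 and 0.02 for Ago2 at day 10 in the authors' deposited table. Dnd1, Tex19.1 and Mov10, from the transposon defence list, had 0.09, 0.08 and 0.05 there in the authors' deposited table.

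**Figure D5:**
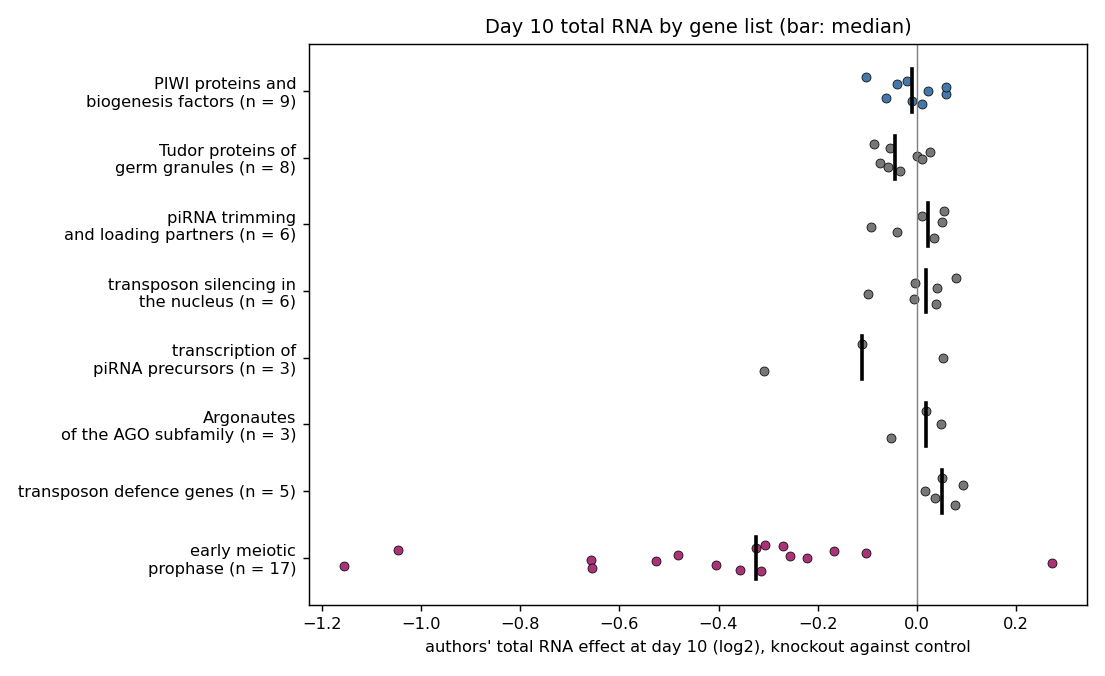
The authors' day 10 total RNA effects (log2, knockout against control) by gene list. Shown are the 9 PIWI and biogenesis genes, 6 lists of other piRNA pathway and related genes, and early meiotic markers. Each point is a gene and each bar a median. The 9 genes lie between -0.10 and 0.06 with a median of -0.01, Mybl1 is the point at -0.31, and 16 of 17 early meiotic markers lie below 0.

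Markers of cell stages give the setting of these values. Of 17 early meiotic prophase markers, 16 had a day 10 total RNA effect below 0, with a median of -0.32 and 0 called, in the authors' deposited table. At day 8 all 17 were below 0 with a median of -0.11, and 1 was called, in the authors' deposited table. Undifferentiated spermatogonial markers had medians of 0.06 and 0.02, and differentiating ones -0.09 and 0.07, at day 8 and day 10 in the authors' deposited table. In that order, the 5 of 7 pachytene markers measured had -0.04 and -0.06, and the 2 of 11 spermatid markers measured had 0.04 and 0.05. Read levels of these markers in juvenile testis are unknown here, and their medians are not read as the amount of such cells. Among somatic lists, Sertoli cell medians were -0.03 and -0.03, and Leydig cell ones 0.04 and 0.01. Peritubular myoid markers had -0.02 and 0.03, macrophage markers 0.07 and 0.04, and endothelial markers -0.11 and -0.02. Red blood cell markers had -0.18 and 0.14 in the authors' deposited table. The median total RNA effects of the 9 PIWI and biogenesis genes, -0.03 and -0.01, were nearer to 0 at both ages than those of the early meiotic markers in the authors' deposited table; that difference, and the part of stage makeup in the members' values, was not tested.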

How the data were processed

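STAR, DESeq2 and mm10 are named in the submitters' processing notes, with versions, read counter and annotation not given in the sources used here. Per the labels' protocols, RNA came from Trizol extraction and libraries were made by ribosomal depletion or poly(A) selection. For adult testis the authors deposited raw read counts of 55566 features beside their own DESeq2 log2 fold changes and p-values. For juvenile testis the values are anota2seq 1.14.0 effects with adjusted p-values, per the file headers and description, which names knockout first. No log base is given for the authors' effects; log2 was assumed, since genes of the authors' translation class differ between footprints and total RNA by at least 0.263, the log2 of 1.2.

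Adult counts were filtered with filterByExpr (22446 features left), TMM-scaled, and compared by edgeR 4.0.16 in R 4.3.3 (quasi-likelihood, homozygous against heterozygous, Benjamini-Hochberg threshold 0.05). The biological coefficient of variation was 6.77%. Age could not enter the fit, because the count columns name the genotype but no animal. Libraries of a group differed beyond sampling noise. The script was tested on simulated data. DESeq2 1.42.0 was an alternative. CPM are TMM-scaled and were not compared between genes, because exon lengths were not used here. Replicates were taken as separate animals from the labels. Gene positions and promoters come from RefSeq for GRCm38.p6. Juvenile effects were summarised with Python 3.11.15 and pandas 2.3.3, and figures drawn with matplotlib 3.10.9.

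The genes named were the 10 members, Ythdc2, Mybl1, and up to 3 genes of each pathway list with the largest absolute day 10 total RNA effect. Fam102b was named for its overlap with Henmt1. The rule that chose the members uses no measured value, but members and lists were chosen with earlier results of these data known.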

Additional observations from a re-analysis of the deposited data

How the results depend on the processing

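The adult count of 53 features was 195 with DESeq2, 595 with no filter on low counts and 159 at a threshold of 0.1, and ran from 3 to 1917 over the 6 fits that each left out 1 library. RLE scaling gave 53, library totals alone 56 and leaving out piRNA clusters 52. Over 12 alternative settings and 10 genes, 120 values held 0 calls and 1 change of sign. That was Mael without the first heterozygous library, at -0.0135 (edgeR adjusted p = 0.891), and the cause was not tested. The 10 values at a threshold of 0.1 repeat those of the main fit and could not change sign. Piwil4 had no adjusted p by DESeq2 and could not be called there. Leaving out single libraries, log2 fold changes ran from 0.09 to 0.14 for Piwil1, 0.12 to 0.20 for Pld6 and 0.12 to 0.17 for Henmt1. They ran from -0.0135 to 0.0364 for Mael, -0.13 to -0.06 for Asz1, -0.13 to -0.01 for Gtsf1 and -0.07 to -0.01 for Ddx4. For Piwil2 they ran from 0.004 to 0.035, for Piwil4 from -0.25 to -0.12 and for Mov10l1 from 0.04 to 0.08. The lowest edgeR adjusted p under any setting was 0.0804. In juvenile testis, the authors' deposited tables call 0 of 9 genes in total RNA, footprints and buffering at thresholds of 0.05, 0.1 and 0.15; in translation, 1 (Mael, day 8) passed 0.15, against 3.06% of all genes. With all 9 genes the median total RNA effect was -0.028 at day 8 and -0.010 at day 10. Leaving out single genes, it lay between -0.030 and -0.016 at day 8 and between -0.015 and 0.0004 at day 10. At day 10 it was above 0 when Mov10l1, Mael, Ddx4 or Henmt1 was left out. The alternative of levels per longest transcript was not run, because no exon lengths were used. No paired analysis was possible because the adult columns carry no animal that links genotypes and the juvenile values are the authors' effects over animals. Depth limits Piwil4 most, at 15 to 21 reads per library.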
